A study of Mus musculus with 34 samples.

Results

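Transcript levels of 10 genes of the Lin28, Trim71 and microRNA system were examined in mouse embryonic stem cells (mESCs) grown without LIF, with and without Royalactin. The genes were taken by name, as the rows of the deposited table for Lin28a, Lin28b, Trim71, Dicer1, Dgcr8, Drosha, Xpo5, Tarbp2, Hmga2 and Igf2bp1. All 10 were present among 23366 gene rows, and all 10 passed the filter on low values that left 12993 genes for testing. The rule used names and no measured value, but the names were chosen with earlier results of these data known.

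The cells were J1, a single mESC line that depends on leukemia inhibitory factor (LIF) for self-renewal in serum, at passage 40 per the labels, whereas the study's text gives a different passage number for its RNA-seq of this line. Every library used here came from serum medium on gelatin without LIF. In serum/-LIF (n = 2) nothing replaced the cytokine, and in serum/-LIF + Royalactin (n = 2) the medium held purified honey bee Royalactin at 0.5 mg/ml. Total RNA depleted of ribosomal RNA was sequenced, and the comparison asks how the transcripts of LIF-deprived cells differ when Royalactin is present. The labels do not say whether the libraries of a group came from separate cultures, so the spread between these libraries may be technical. The p-values rest on that spread, taken for each gene together with other genes of similar level.

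A microRNA is cut from its primary transcript in the nucleus by Drosha and its RNA-binding partner Dgcr8, carried to the cytoplasm by exportin 5 (Xpo5), and cut again by Dicer1 with its partner Tarbp2. Lin28a and Lin28b bind let-7 precursors and keep them from maturing, and let-7 in turn represses the mRNAs of both Lin28 proteins, of the ubiquitin ligase and RNA-binding protein Trim71 (Lin41), of the chromatin protein Hmga2 and of the mRNA-binding protein Igf2bp1. Undifferentiated mESCs are known for high Lin28a and Trim71, for little mature let-7, and for abundant microRNAs of the miR-290 family, whereas the related miR-302 family is known from the later, primed state.

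The mature microRNA sequences that join these genes are given from RefSeq (build GRCm38.p6), with the seed, bases 2 to 8, in capitals. They show that let-7 forms 1 seed group and that members of the miR-290 and miR-302 families share another, so that the 2 families can address the same sites. Mature microRNAs were not measured in these libraries.
let-7a-5p: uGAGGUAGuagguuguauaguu
let-7d-5p: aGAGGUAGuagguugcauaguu
let-7i-5p: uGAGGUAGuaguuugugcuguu
miR-294-3p: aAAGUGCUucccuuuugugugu
miR-295-3p: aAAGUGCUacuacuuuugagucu
miR-302b-3p: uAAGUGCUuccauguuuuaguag
miR-302d-3p: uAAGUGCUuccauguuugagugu
miR-367-3p: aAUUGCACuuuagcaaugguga
miR-17-5p: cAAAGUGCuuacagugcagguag
In the RefSeq table the let-7 seed GAGGUAG is carried by 11 mature sequences and the seed AAGUGCU by 5. miR-17 and miR-20a carry the shifted seed AAAGUGC, and miR-367, which is made from the miR-302 cluster, carries AUUGCAC.

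The 7 bases that pair with the let-7 seed, CTACCTC, were sought on the transcribed strand of the longest annotated 3′ UTR of each gene (GENCODE vM1, mm9). Hmga2, Lin28b and Igf2bp1 each held 4 matches, Lin28a and Trim71 held 2 each, Tarbp2 held 1, and Dicer1, Dgcr8, Drosha and Xpo5 held 0. Among other genes with a 3′ UTR within 20% of the same length, 0.102% had as many matches as Hmga2, 0.197% as many as Lin28b, 0% as many as Igf2bp1, 0.777% as many as Trim71 and 2.36% as many as Lin28a. At least 1 match was found in 8.83% of all 3′ UTRs. The annotated 3′ UTRs of Xpo5 and Drosha are only 28 and 168 bases long, so that few positions could be searched there. The matches followed by an A, the form that let-7 is known to repress most, are printed with the 14 bases before them. Each lies in the 3′ UTR of its gene, on the minus strand of mm9, with the 7 matching bases in capitals.
Lin28a, chr4:133561104-133561125: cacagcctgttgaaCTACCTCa
Lin28a, chr4:133560466-133560487: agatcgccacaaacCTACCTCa
Lin28b, chr10:45100828-45100849: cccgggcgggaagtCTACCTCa
Trim71, chr9:114421590-114421611: acattgcctaagtcCTACCTCa
Trim71, chr9:114421494-114421515: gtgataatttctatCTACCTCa
Hmga2, chr10:119801280-119801301: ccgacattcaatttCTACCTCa
Igf2bp1, chr11:95823092-95823113: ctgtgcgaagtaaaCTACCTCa
Igf2bp1, chr11:95820671-95820692: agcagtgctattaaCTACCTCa
Igf2bp1, chr11:95820077-95820098: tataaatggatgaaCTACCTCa
A match is a description of the sequence and not evidence that let-7 acted on it in these cells.

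The libraries held 14737796 to 17597818 reads on genes, of which the ribosomal RNA precursor Rn45s took 9.08% to 46.6%, more in replicate 1 than in replicate 2 of both groups. Values are normalized counts, that is reads divided by 1 factor per library. The 8 pluripotent cell markers were all detected, with summed normalized counts of 25147 and 31236 in serum/-LIF and 33775 and 41025 with Royalactin. Of the 8, 7 had higher means with Royalactin and 1, Tdgf1, had a lower one (12733 against 9212). Esrrb, Zfp42 and Sox2, 3 of the 8, passed an adjusted p of 0.05, against 0.493% of all tested genes. Their means rose from 207 to 1515, from 597 to 2904 and from 1357 to 3929 (limma adjusted p = 0.00273, 0.00371 and 0.0368). The 10 fibroblast markers summed to 164 and 94.2 in serum/-LIF and 97.6 and 69.5 with Royalactin, and Fap, Pdgfrb and Postn had no read in any library. The 7 primitive endoderm markers summed to 384 and 295 against 336 and 219, and the 6 neural progenitor markers to 1607 and 1247 against 583 and 549. Nes, an intermediate filament of neural progenitors, made up 1490 and 1099 of the latter in serum/-LIF and 334 and 326 with Royalactin. It was the 1 of 3 tested neural markers that passed (log2 fold change -1.95, limma adjusted p = 0.0166), against 0.493% of all tested genes. The other tested neural markers were not lower on average: Pax6 had 93.6 and 79.7 against 172 and 171, and Sox1 had means of 44.9 and 63.2. In bulk RNA, fewer cells of a type and less RNA per cell cannot be told apart.

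None of the 10 genes passed an adjusted p of 0.05 in limma for Royalactin against the controls, against 0.493% of all tested genes, and 2 of 10, Hmga2 and Drosha, had an unadjusted p under 0.05, against 9.34%. Hmga2 was 4.61-fold lower with Royalactin and was the only member past the limits of an unadjusted p under 0.05 and a 2-fold change, which 7.13% of tested genes met. The other 9 differed by less than 2-fold, and for 6 of the 10 the 95% interval of the log2 fold change lay within 2-fold in either direction. The groups did not overlap for 5 of the 10 genes, against 38.6% of tested genes. Drosha and Xpo5 had both Royalactin libraries above both controls, against 19.7% of tested genes, and Lin28a, Lin28b and Hmga2 had both below, against 18.9%.

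Lin28a (chr4:133559245-133574756 of mm9, minus strand), the form of Lin28 that acts mostly in the cytoplasm, was by far the most abundant member per length. Its normalized counts were 7005 and 5721 in serum/-LIF replicates 1 and 2 and 5402 and 5707 in serum/-LIF + Royalactin replicates 1 and 2. Both Royalactin libraries lay below both controls, but the second of each group differed by very little. The log2 fold change was -0.19 (95% interval -0.84 to 0.46, limma adjusted p = 0.891). When its exons were tiled in 75-base windows, 13.1% of the windows had a near-identical copy elsewhere in mm9, and 103 bases of exon overlap Gm13061 on the opposite strand.

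Lin28b (chr10:45096426-45206201, minus strand), the paralog that blocks let-7 processing in the nucleus as well, was lower with Royalactin in every library. It had 1969 and 2135 normalized counts in serum/-LIF and 1600 and 1195 with Royalactin, a mean ± SD of 2052 ± 118 against 1398 ± 287 (n = 2 each). The distance between the nearest libraries of the groups was larger than that between the serum/-LIF libraries and smaller than that between the Royalactin libraries. The log2 fold change of -0.57 (standard error 0.30, 95% interval -1.21 to 0.07) did not pass the test (limma adjusted p = 0.606), and the interval still includes a fall of more than 2-fold. No exon window of Lin28b had such a copy.

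Trim71 (chr9:114420393-114473487, minus strand), which represses mRNAs of differentiation and cell-cycle inhibitors in mESCs, had 3311 and 1654 normalized counts in serum/-LIF and 3079 and 2819 with Royalactin. The groups overlapped, because serum/-LIF replicate 1 was the highest library and replicate 2 the lowest. The log2 fold change was 0.33 (95% interval -0.41 to 1.07, limma adjusted p = 0.82), and it became -0.17 without serum/-LIF replicate 2 and 0.83 without serum/-LIF replicate 1 (limma adjusted p = 0.201). The SD within serum/-LIF, 1172, was larger than the difference between the group means of 2483 and 2949.

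**Figure D1:**
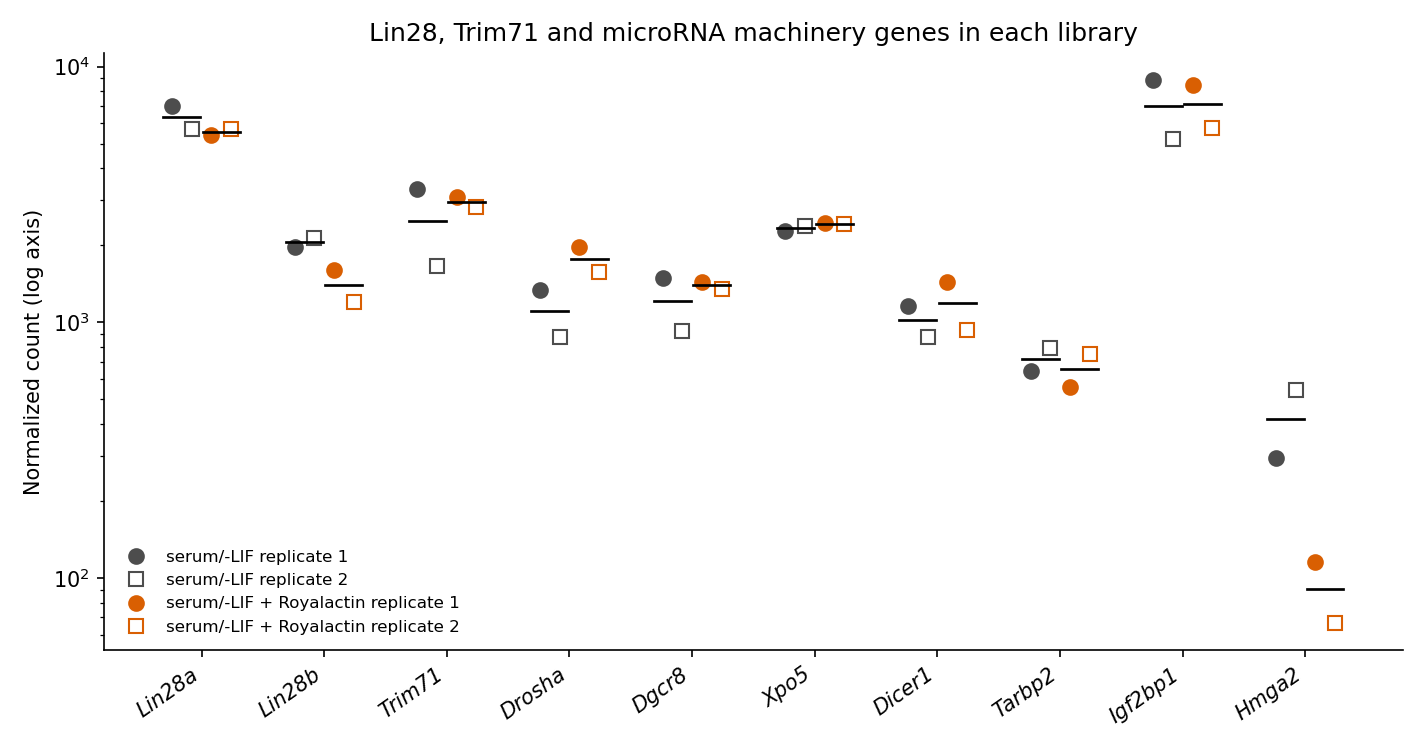
Normalized counts (log axis) of the 10 genes in each library. Filled circles are replicate 1 and open squares replicate 2, grey is serum/-LIF and orange serum/-LIF + Royalactin, and black bars are group means (n = 2). Hmga2 is the only gene whose groups stand far apart, with means of 418 and 90.7.

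Drosha (chr15:12754570-12865045, plus strand), the nuclease of the nuclear step, had the highest log2 fold change of the 10. It had 1333 and 876 normalized counts in serum/-LIF and 1978 and 1567 with Royalactin, so that both Royalactin libraries lay above both controls. The log2 fold change of 0.70 (standard error 0.32, 95% interval 0.02 to 1.39) did not pass after adjustment over all genes (limma adjusted p = 0.518). Its partner Dgcr8 (chr16:18254041-18289342, minus strand) had 1491 and 925 against 1443 and 1354 normalized counts, and the groups overlapped (log2 fold change 0.25, 95% interval -0.44 to 0.94, limma adjusted p = 0.859). The exons of Dgcr8 overlap those of Trmt2a on the opposite strand over 825 bases, and the strand setting of the counting is not given in the sources used here.

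Xpo5 (chr17:46339804-46379248, plus strand), which carries precursors out of the nucleus, was the steadiest member. Its normalized counts were 2268 and 2389 in serum/-LIF and 2444 and 2420 with Royalactin, so that the 4 libraries lay within a narrow band although the groups did not overlap. The log2 fold change was 0.06 (95% interval -0.55 to 0.67, limma adjusted p = 0.965). Dicer1 (chr12:105925952-105990162, minus strand), the nuclease of the cytoplasmic step, had 1159 and 878 against 1442 and 931 normalized counts, and its partner Tarbp2 (chr15:102348623-102354107, plus strand) had 642 and 796 against 559 and 750. For both genes the replicates of a group differed more than the groups did (log2 fold changes 0.20 and -0.14, limma adjusted p = 0.895 and 0.93). The 95% intervals were -0.51 to 0.90 for Dicer1 and -0.85 to 0.56 for Tarbp2, and 20.9% of the exon windows of Tarbp2 had a copy elsewhere.

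Igf2bp1 (chr11:95818477-95867254, minus strand), a fetal mRNA-binding protein, had 8852 and 5205 normalized counts in serum/-LIF and 8501 and 5764 with Royalactin. The group means of 7029 ± 2578 and 7133 ± 1935 (SD, n = 2) were nearly equal, and in each group replicate 1 was the higher (log2 fold change 0.04, 95% interval -0.71 to 0.80, limma adjusted p = 0.981). The same arrangement, both replicates 1 above both replicates 2, was seen for Trim71, Dicer1 and Dgcr8, that is in 4 of the 10 genes against 17.5% of tested genes. It went along with the share of Rn45s, and its part in these values was not tested.

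Hmga2 (chr10:119798331-119913525, minus strand), an architectural chromatin protein that is high in embryonic and mesenchymal cells and a classic let-7 target, had the largest difference of the 10. It had 294 and 542 normalized counts in serum/-LIF and 115 and 66.8 with Royalactin, from 220 and 524 reads and 114 and 97 reads. Both Royalactin libraries were far below both controls, and the lower control was still more than 2-fold above the higher Royalactin library. The means were 418 ± 175 and 90.7 ± 33.9 (SD, n = 2), and the log2 fold change was -2.18 (standard error 0.49, 95% interval -3.22 to -1.13). In limma this did not pass the threshold over all genes (adjusted p = 0.0852), and over the alternatives the adjusted p ranged from 0.000437 to 0.987 while the log2 fold change stayed between -2.62 and -1.74. A copy elsewhere was found for 29.3% of its exon windows, and 140 bases of exon overlap 1700006J14Rik on the opposite strand. Of the 6 neural progenitor markers 2, Nes among them, had lower means with Royalactin and 3 had higher ones, and the pluripotent cell markers summed to more in both Royalactin libraries. The 10 fibroblast markers summed to at most 164, and 4 had lower and 3 higher means with Royalactin. Among them Dcn had 28 and 30 reads in serum/-LIF and 0 and 0 with Royalactin (limma adjusted p = 0.422), and the part of these markers in the Hmga2 difference was not tested.

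**Figure D2:**
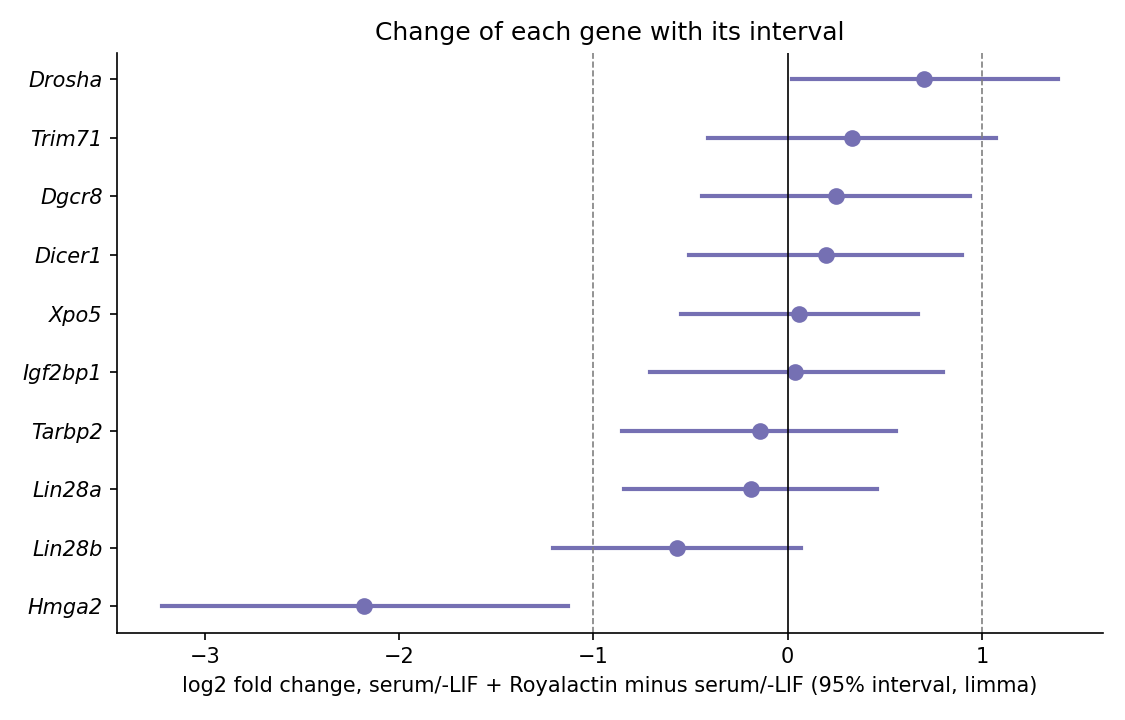
Log2 fold change of each gene (serum/-LIF + Royalactin minus serum/-LIF) with its 95% interval from limma, 2 libraries per group. Dashed lines mark 2-fold. The interval of Hmga2 lies wholly below the lower line, that of Drosha just clears 0, and the other 8 include 0.

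Levels were compared between genes as normalized counts per kilobase of annotated exon. In serum/-LIF the order of mean levels per kilobase was Lin28a (1815), Igf2bp1 (726), Xpo5 (628), Trim71 (478), Lin28b (226), Drosha (186), Dgcr8 (166), Tarbp2 (158), Dicer1 (101) and Hmga2 (61.8). With Royalactin Lin28a (1585) was again first and Hmga2 (13.4) last. Lin28b stood in the fifth place in serum/-LIF and in the seventh with Royalactin (154 per kilobase), behind Drosha (299) and Dgcr8 (192). Neighbours in serum/-LIF whose library ranges overlapped were Igf2bp1 with Xpo5, Xpo5 with Trim71, and the run from Lin28b through Drosha and Dgcr8 to Tarbp2. Lin28a was separated from every other member in both groups. The ratio of Lin28a to Lin28b per kilobase is a comparison of levels, and it rests on annotated exon lengths of 3505 and 9065 bases.

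Other genes of the pathway were taken from lists drawn up by function. Of the 15 processing cofactors, 6 genes of pre-let-7 tailing and decay and 26 silencing effectors, 1 passed an adjusted p of 0.05 in limma, against 0.331% of all tested genes in the higher direction and 0.162% in the lower. Their median log2 fold changes were 0.04, 0.04 and 0.12, beside -0.01 for all tested genes. The gene that passed was Mov10, an RNA helicase that binds Argonaute complexes and restricts retroelements. Mov10 rose from 171 and 208 to 838 and 565 normalized counts (log2 fold change 1.86, limma adjusted p = 0.0484), and it lost the call in 9 of 13 alternatives, among them each library left out (adjusted p 0.189 and 0.0588 without serum/-LIF replicates 1 and 2, and 1.00 and 0.772 without Royalactin replicates 1 and 2). A copy elsewhere was found for 19.3% of its exon windows.

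Among the 15 processing cofactors the groups did not overlap for 4 genes, against 38.6% of all tested genes. Prkra, a double-stranded RNA-binding partner of Dicer1, had 316 and 454 against 254 and 235 normalized counts (log2 fold change -0.63, limma adjusted p = 0.669). The helicase Ddx17 (log2 fold change 0.34) and the cap-binding cofactor Srrt (0.31) had higher values in both Royalactin libraries, with limma adjusted p-values of 0.78 and 0.80. Ago2, listed as Eif2c2 in the table and the slicing Argonaute, had 1831 and 1081 against 2027 and 956 normalized counts, so that its replicates differed more than its groups.

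Of 27 other mRNAs known as let-7 targets, 11 had log2 fold changes above 0 and 16 below. Of all 12993 tested genes, 6414 lay above and 6579 below. The median of the 27 was -0.25, beside -0.01 for all tested genes. Only Thbs1, a matricellular glycoprotein, passed an adjusted p of 0.05, that is 1 of 27 against 0.162% of tested genes in the lower direction. Thbs1 fell from 1487 and 706 to 129 and 70.9 normalized counts (log2 fold change -3.41, limma adjusted p = 0.00371). The call was lost without the variance trend (limma adjusted p = 0.25). It was also lost without serum/-LIF replicate 1 and without Royalactin replicate 2, where the log2 fold changes were -2.87 and -2.98. With an unadjusted p under 0.05 and 2-fold, which 3.61% of tested genes met in the lower direction and 3.52% in the higher, Thbs1, Irs2, Fign and Prtg were lower and Mycn was higher.

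Irs2, the adaptor of insulin receptor signaling, had 760 and 341 normalized counts in serum/-LIF and 117 and 134 with Royalactin (limma adjusted p = 0.0873). Prtg, a cell-surface receptor of the early embryo, had 2933 and 2127 normalized counts against 1284 and 1169, and the AAA ATPase Fign had 132 and 128 reads against 82 and 32 (limma adjusted p = 0.216 and 0.40). Mycn, the Myc family member known from mESCs, went the other way with 1106 and 807 against 1948 and 2282 normalized counts (log2 fold change 1.16, limma adjusted p = 0.152). In these 5 genes the groups did not overlap, against 38.6% of all tested genes. They were picked by p and fold change in the same libraries, so this adds no support. Over the 27 targets both Royalactin libraries lay above both controls for 6 and below for 9, against 19.7% and 18.9% of all tested genes.

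**Figure D3:**
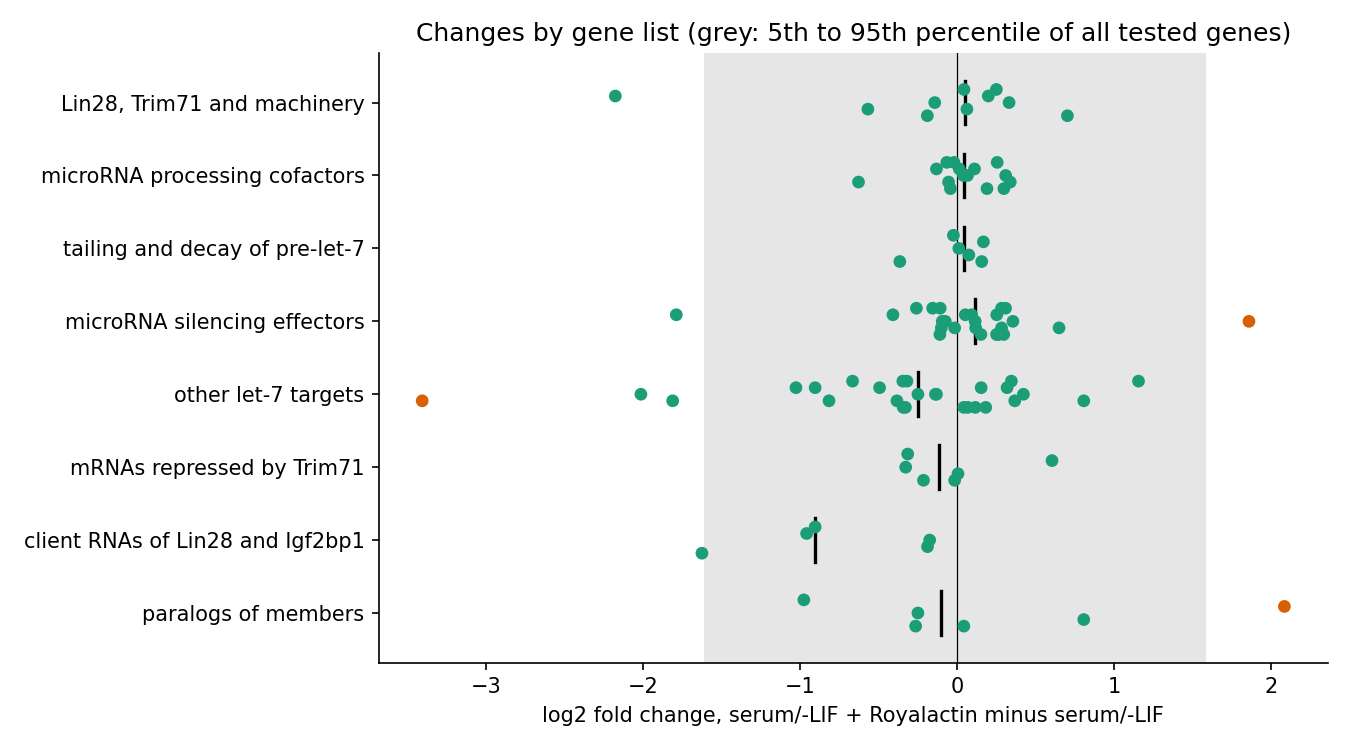
Log2 fold changes (serum/-LIF + Royalactin minus serum/-LIF) of the tested genes in each list. Orange points passed an adjusted p of 0.05 in limma, black bars are medians, and the grey band holds the 5th to 95th percentile of all tested genes, -1.60 to 1.58. Most points lie inside the band, and Hmga2, Thbs1, Irs2, Mov10 and Trim2 are among those outside it.

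Of 6 mRNAs known to be repressed by Trim71, none passed an adjusted p of 0.05 in limma, against 0.493% of all tested genes. None met an unadjusted p of 0.05 with 2-fold, against 7.13%. So few genes cannot show a departure from these shares. The median log2 fold change was -0.11, and Rbl1, a retinoblastoma-like cell-cycle inhibitor, was the only gene of the 6 whose groups did not overlap (38.6% of all tested genes did not), with 373 and 358 against 266 and 319 normalized counts. All 5 RNAs known to be bound by Lin28 or Igf2bp1 had log2 fold changes below 0, as did 6579 of the 12993 tested genes. None of the 5 passed an adjusted p of 0.05, against 0.493% of all tested genes. Igf2, the fetal growth factor whose mRNA both proteins bind, had 285 and 142 against 80.5 and 51.6 normalized counts (log2 fold change -1.63, limma adjusted p = 0.338). Myc had 400 and 177 against 164 and 123 (limma adjusted p = 0.625).

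Among the paralogs, Trim2, a ubiquitin ligase with the same NHL-repeat architecture as Trim71, rose with Royalactin. It had 281 and 182 normalized counts in serum/-LIF and 1124 and 827 with Royalactin (log2 fold change 2.09, limma adjusted p = 0.022). The call was lost with a pseudocount of 0.1, with all genes above 0 and without the variance trend (limma adjusted p = 0.0598, 0.0548 and 0.332). It was also lost with each library left out, where the log2 fold change ran from 1.78 to 2.40. Trim71 itself, with a log2 fold change of 0.33, did not pass, and the difference between the paralogs was not tested. Igf2bp2 had 408 and 228 against 664 and 430 normalized counts (limma adjusted p = 0.579), and Igf2bp3 had 1212 and 1179 against 1156 and 875 (limma adjusted p = 0.852). Hmga1 had under 40 normalized counts in every library.

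Reads on microRNA hairpin loci were few, and they come from fragments of longer transcripts, not from mature microRNAs. Of the 34 loci listed, 11 passed the filter and none passed an adjusted p of 0.05 in limma. By an unadjusted p under 0.05, 1 of 11 did, Mir302b, against 9.34% of all tested genes. Mir302b and Mir302d reached the filter's mean of 10 only through serum/-LIF, with Royalactin means of 4.47 and 3.02. Mirlet7a-1 reached it only through Royalactin, with a serum/-LIF mean of 0. The filter thus favoured a difference in these loci, and their tests and this count carry no support. The 5 loci of the miR-302 cluster (Mir302b at chr3:127248146-127248219 to Mir367 at chr3:127248651-127248725, plus strand) all had lower means with Royalactin. Their summed normalized counts were 166 and 383 in serum/-LIF and 49.3 and 62.0 with Royalactin, from 124 and 370 reads and 49 and 90 reads. For the sum both Royalactin libraries lay below both controls, as they did for 18.9% of single tested genes. The sum was formed after the values were seen, so that it carries no test.

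Mir302b had 44.1 and 64.2 normalized counts in serum/-LIF and 0 and 8.95 with Royalactin (limma adjusted p = 0.378), and Mir367 had 44.1 and 58.0 against 11.1 and 11.7 (limma adjusted p = 0.549). Mir302a had 57.5 and 62.1 against 32.2 and 7.57, and its groups did not overlap either. Both Royalactin libraries lay below both controls for Mir302a, Mir302b and Mir367, against 18.9% of all tested genes. Mir302c and Mir302d were uneven in serum/-LIF, with 17.4 and 152 and with 2.67 and 46.6, and their groups overlapped. The cluster lies within Larp7 on the opposite strand, and Larp7, a protein of the 7SK particle, had 1650 and 2730 against 1447 and 1476 normalized counts (log2 fold change -0.54, limma adjusted p = 0.655). If the counting ignored the strand, reads from introns of Larp7 and from the cluster cannot be told apart.

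Mir290 (chr7:3218627-3218709, plus strand), the first hairpin of the miR-290 cluster, had 22.7 and 107 normalized counts in serum/-LIF and 42.2 and 120 with Royalactin. Both replicates 2 were higher than both replicates 1, and the groups overlapped (log2 fold change 0.52, limma adjusted p = 0.892). Mir291a to Mir295 are listed at 0 in all 4 libraries. AU018091, entered as a candidate host of this cluster, rose from 114 and 70.4 to 667 and 600 normalized counts (log2 fold change 2.81, limma adjusted p = 0.00786). The call was lost without the variance trend (limma adjusted p = 0.213). It was also lost without serum/-LIF replicate 1 and without Royalactin replicates 1 and 2, where the log2 fold changes were 3.15, 2.73 and 2.88. The annotation, however, places AU018091 on the minus strand with its nearest end 49.4 kilobases from Mir290, so that it does not contain the hairpins.

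Of the 11 let-7 loci, 6 had no read in any library, and the summed normalized counts of all 11 were 40.1 and 9.32 in serum/-LIF and 68.4 and 30.3 with Royalactin. Mirlet7a-1 had no read in either serum/-LIF library and 35 and 14 reads with Royalactin (limma adjusted p = 0.632). Mir17 had 3 and 22 reads against 55 and 55, while Mir17hg, the transcript that holds the miR-17 hairpins, had 738 and 683 against 509 and 568 normalized counts (log2 fold change -0.40, limma adjusted p = 0.757). Other hairpins of this transcript differed from Mir17, since Mir18 had 76.2 and 83.8 normalized counts against 42.2 and 68.8 and Mir19a had means of 84.3 and 56.1. The hairpins overlap exons of Mir17hg on the same strand. How reads on such overlaps were assigned is not given in the sources used here, so hairpin values may reflect that assignment. The 6 hairpin loci together had 162 and 231 against 222 and 229 normalized counts, and the groups overlapped.

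**Figure D4:**
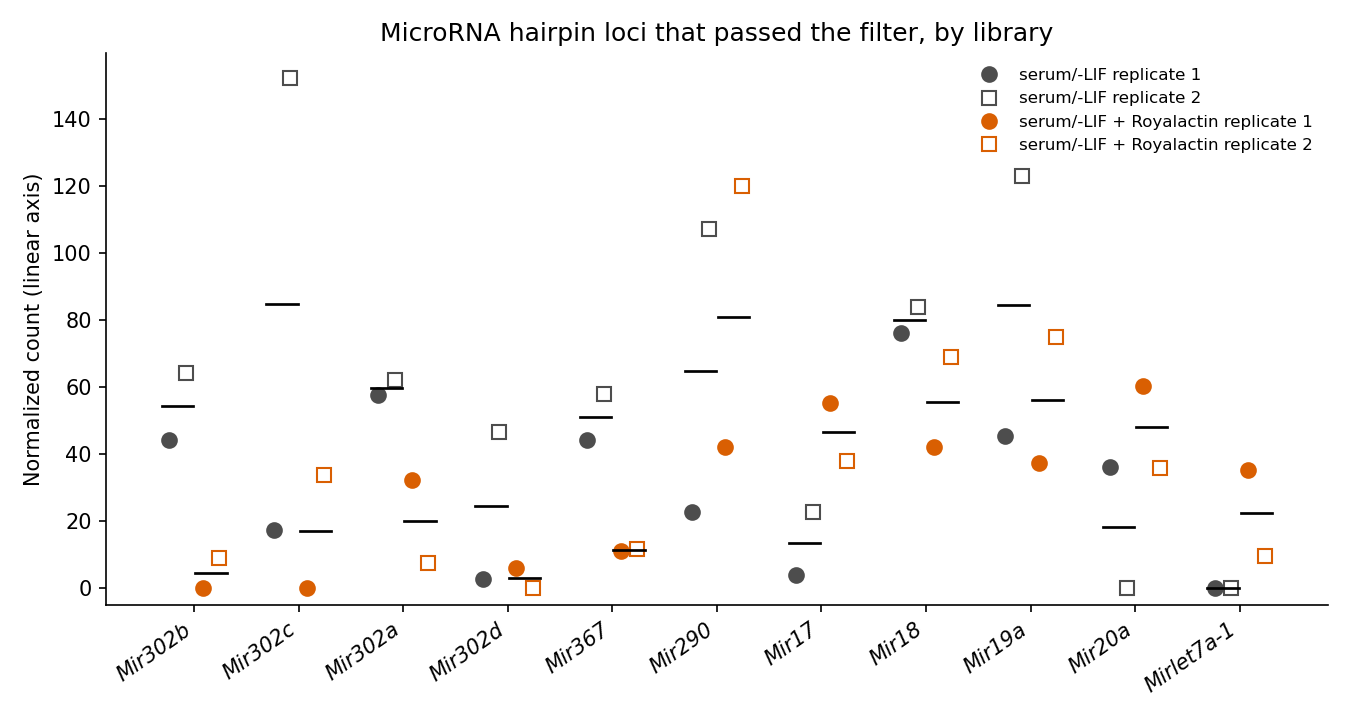
Normalized counts (linear axis) of the 11 microRNA hairpin loci that passed the filter, in each library. Filled circles are replicate 1 and open squares replicate 2, grey is serum/-LIF and orange serum/-LIF + Royalactin, and black bars are means (n = 2). Of the 11 loci, 4 (Mir302b, Mir302a, Mir367 and Mir18) have both Royalactin libraries below both controls and 2 have both above. The shares over all tested genes are 18.9% and 19.7%. Mir302c and Mir302d overlap, and Mir290 follows the replicate number.

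The directions of Hmga2, Lin28b, Lin28a and Drosha were the same in each of 13 processing alternatives. That of Xpo5 was too, with log2 fold changes of only 0.02 to 0.12, so a constant direction alone marks no difference. The log2 fold change ranged from -0.78 to -0.36 for Lin28b, from -0.34 to -0.04 for Lin28a and from 0.40 to 1.01 for Drosha, and none of the 3 passed in any alternative. The direction of Trim71, Dgcr8, Dicer1, Tarbp2 and Igf2bp1 turned when serum/-LIF replicate 2 was left out. Without Royalactin replicate 1 that of Dicer1 (-0.12), Tarbp2 (0.07) and Igf2bp1 (-0.24) turned too, and that of Igf2bp1 also turned with the correction for GC content and length (-0.04).

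**Figure D5:**
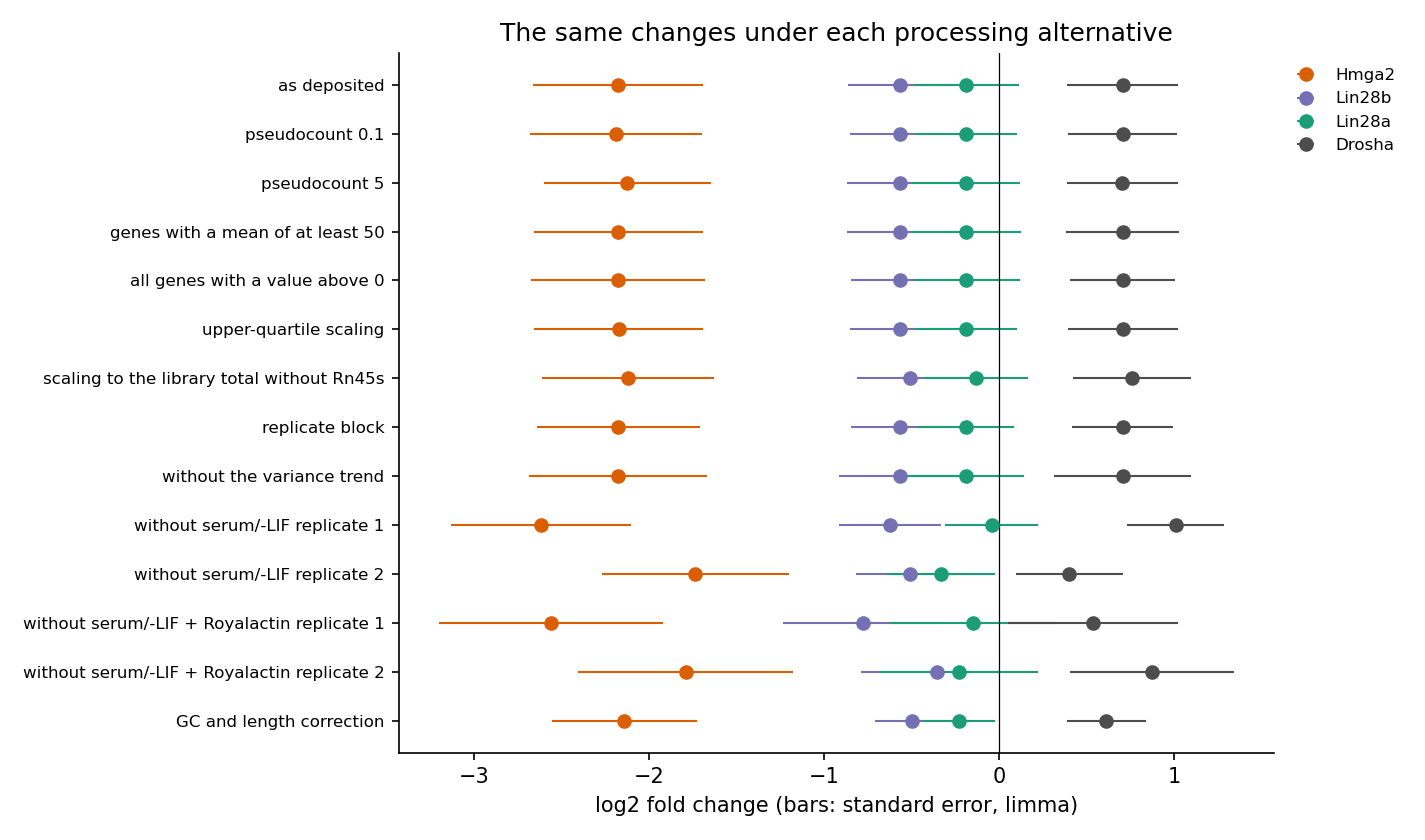
Log2 fold change of Hmga2, Lin28b, Lin28a and Drosha (points) with the standard error from limma (bars) under each processing alternative. Hmga2 stays at or below -1.74 throughout, and the order of the 4 genes is the same in every setting.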

How the data were processed

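The 4 RNA-seq samples of the 34 in the series were used, and its 30 ATAC-seq samples were not analysed here. Alignment by the authors was to mm9 with Tophat, and reads per gene came from HTSeq-count. The deposited values are counts divided by 1 size factor per library, a signal proportional to reads. The annotation and strand setting of the counting are not given in the sources used here. All 4 columns were mapped to samples by name.

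Within each library all deposited values were multiples of what 1 read is worth (0.688 to 1.34), to within 0.01 of a read, and read numbers are values divided by it. For serum/-LIF + Royalactin replicate 1 that worth is too near 1 for an automatic check, so no count model was fitted.

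Differences were tested in limma 3.58.1 (R 4.3.3) on log2(normalized count + 1) with a variance trend, two-sided, for genes with a mean of at least 10, with Benjamini-Hochberg adjustment over all 12993. The added 1 shrinks fold changes of weakly expressed genes. A library near 0 still weighs more on this scale than in the group means. The log2 fold change can then exceed the ratio of means, as for Mir20a (ratio 2.66, log2 fold change 2.96). Steps were tested on simulated data. Positions and exon lengths come from GENCODE vM1 of mm9 (94.0% of symbols matched), sequences of microRNAs from RefSeq, and exon windows of 75 bases were mapped with up to 2 mismatches with minimap2 2.31-r1302.

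The 10 genes and all lists were chosen with earlier results of these data known. Named were the 10 genes, list genes past an adjusted p of 0.05, and otherwise up to 3 genes per list with the largest change among those whose groups do not overlap. Also named were, of the microRNA loci that the filter on low values left out, the 6 with the highest means and the 3 nearest profiles of Lin28a, Lin28b and Trim71. Other genes named (Irs2, Fign, Prtg, Mycn, Ago2, Igf2bp2, Igf2bp3, Hmga1, Dcn, Nes, Pax6, Sox1, Esrrb, Zfp42, Sox2, Tdgf1, Mir17hg, Mir22hg, Larp7 and the microRNA loci other than Mirlet7a-1, Mir302b, Mir17 and those 6) were picked after their values were seen. Alternatives were pseudocounts of 0.1 and 5, other filters, 2 scalings, a replicate block, no trend, each library left out, and a correction for GC content and length (lowess span 0.3) added after seeing the data. PCR copies are not independent molecules, so read numbers bear on counting error only.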

Additional observations from a re-analysis of the deposited data

How the results depend on the processing

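The number of tested genes past an adjusted p of 0.05, 64 as reported, was 32 with a pseudocount of 0.1, 99 among genes with a mean of at least 50, 34 with all genes above 0, 391 with the replicate block, 254 with the correction for GC content and length, and 927 by an unadjusted p under 0.05 with 2-fold. It was 0 without the variance trend, where 1135 genes had an unadjusted p under 0.05. Leaving out 1 library gave 0 to 60: 0 without serum/-LIF replicate 1 (2518 by unadjusted p) or Royalactin replicate 2 (547), 4 without Royalactin replicate 1, and 60 without serum/-LIF replicate 2. In those fits the lone library of a group is assumed to vary like the other group. Of the 10 genes, 0 passed as reported and 1, Hmga2, passed with a pseudocount of 5 (log2 fold change -2.13, limma adjusted p = 0.0471), with a mean of at least 50 (-2.18, 0.0321), with the replicate block (-2.18, 0.000437) and with the correction (-2.14, 0.0137). Its adjusted p was 0.37 without the trend and 0.185 to 0.987 with a library left out, where its log2 fold change ran from -2.62 to -1.74. The 4 list genes past the test became 2 with a pseudocount of 0.1 and with all genes, 7 with the block and with the correction, 0 without the trend, and 0 to 3 with a library left out. The count of 11 by unadjusted p with 2-fold ran from 9 to 17, the highest without serum/-LIF replicate 1. As reported, the 4 and the 11 were each out of 104 tested list genes. Over all tested genes the shares were 0.493% by adjusted p and 7.13% by unadjusted p with 2-fold. The cause of the differences between settings was not tested. Across the tested genes, the deviations of replicate 1 from its group mean correlated only weakly between the groups (correlation 0.0851). The replicate numbers are therefore not taken as a pairing, and the block is given as a setting only. Without serum/-LIF replicate 2 the log2 fold change of Trim71 was -0.17, of Dgcr8 -0.09 and of Igf2bp1 -0.34, and without serum/-LIF replicate 1 that of Trim71 was 0.83. The count test on recovered reads was not run.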

Other observations

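Across all tested genes, the number of let-7 seed matches in the 3′ UTR went with little difference in log2 fold change. The median was -0.01 for 10875 genes without a match, 0.02 for 1146 genes with 1, and 0.04 for 159 genes with 2 or more, of which 48.4% were lower with Royalactin. For AGCACTT, which pairs with the seed shared by miR-294 and miR-302b, the medians were -0.015 for 10108 genes without a match, 0.03 for 1727 genes with 1 and 0.03 for 345 genes with 2 or more. Genes with more matches have longer 3′ UTRs (median 1089 bases without and 3443 bases with 2 or more let-7 matches), and these values are given as a description with no test. Hmga2, with 4 let-7 matches, had a log2 fold change of -2.18, and Igf2bp1, with as many, had 0.04.

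The tested genes whose 4 library values, centred on the gene's own mean, lay nearest to those of Lin28a were Fbxo31, Terf2 and Loh12cr1, at Euclidean distances of 0.0251, 0.0422 and 0.0582 on the log2 scale. Nearest to Lin28b were Arhgap29, Scyl2 and BC016423 (0.0373, 0.0449 and 0.0729), and nearest to Trim71 were Smarcb1, Nacc1 and Aurkb (0.0632, 0.0712 and 0.0712). The likeness is over 4 libraries only.

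Of the microRNA loci under the filter on low values, Mir19b-1 had 0 and 1 reads in serum/-LIF and 27 and 16 with Royalactin, and Mir25 had 22 and 6 against 0 and 2. Mir93 had 9 and 0 against 22 and 3 reads, Mir98 12 and 0 against 10 and 13, Mirlet7d 9 and 0 against 16 and 8, and Mirlet7f-1 10 and 0 against 0 and 17. Mir19b-1 overlaps an exon of Mir17hg, and Mir25 and Mir93 overlap exons of Mcm7, on the same strand. The assignment of reads on such overlaps is not known here. Mir22hg, the host of miR-22, had 40.1 and 70.4 against 6.04 and 16.5 normalized counts (log2 fold change -2.29, limma adjusted p = 0.518).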
